A study of Mus musculus with 3 samples.

Results

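The galectins are a family of lectins, proteins that bind sugars, and the 8 mouse genes described here are Lgals1, Lgals2, Lgals3, Lgals4, Lgals6, Lgals7, Lgals8 and Lgals9. They were taken by gene symbol from tables listing 24346 genes, and all 8 were found. The libraries, 1 per region, hold RNA of epithelial cells from mouse large intestine, upper small intestine and lower small intestine. Cells had been loosened from the opened gut with 5 mM EDTA (20 min, 37 °C), and the labels mention no sorting. The study as a whole is about colon inflammation and E-NTPD8, which breaks down ATP outside cells. No treatment, genotype or age is given for any library, nor how many animals contributed to it. A strain is labelled for the upper small intestine and not for the others, and it names a colorectal cancer model, so with the upper library a strain difference and a regional one cannot be told apart if the label is right. No difference below has a replicate check, and no p-value was computed.

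Galectins bind glycans that end in beta-linked galactose, above all N-acetyllactosamine units. They are made on cytosolic ribosomes without a signal peptide and reach the cell surface and lumen by an unconventional route, where they crosslink glycoproteins and glycolipids. Prototype galectins (Lgals1, Lgals2, Lgals7) carry a single carbohydrate recognition domain. The chimera galectin Lgals3 adds a flexible tail through which it oligomerises, and tandem-repeat galectins (Lgals4, Lgals6, Lgals8, Lgals9) join a pair of different domains in one chain. In intestinal epithelium the family is known for holding brush-border enzymes in lipid rafts, for apical protein sorting and for binding microbes.

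The promoters of the 3 genes with the widest differences between regions are shown first, as the RefSeq sequence upstream of the annotated start (GRCm38.p6, 5′ to 3′ on the gene's strand), cut short where any GENCODE M21 exon of the gene begins. Lgals2 is shown from chr15:78855530-78855779 (minus strand), Lgals9 from chr11:78984947-78985174 (minus strand) and Lgals3 from chr14:47373610-47373812 (plus strand). The Lgals3 stretch belongs to the RefSeq start at 47373860 and lies inside the GENCODE span of the gene, which begins upstream at 47367751. Capitals mark matches to the motifs named after the sequences.
Lgals2: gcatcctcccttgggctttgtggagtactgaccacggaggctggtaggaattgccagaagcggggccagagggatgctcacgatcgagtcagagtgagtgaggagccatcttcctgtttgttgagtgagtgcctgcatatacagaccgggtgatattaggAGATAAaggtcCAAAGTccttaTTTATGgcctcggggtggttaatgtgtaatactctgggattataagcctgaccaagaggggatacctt
Lgals9: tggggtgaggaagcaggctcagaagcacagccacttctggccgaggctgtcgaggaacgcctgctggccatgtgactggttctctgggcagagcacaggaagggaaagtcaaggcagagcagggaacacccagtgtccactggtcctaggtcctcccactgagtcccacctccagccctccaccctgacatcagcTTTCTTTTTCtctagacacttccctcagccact
Lgals3: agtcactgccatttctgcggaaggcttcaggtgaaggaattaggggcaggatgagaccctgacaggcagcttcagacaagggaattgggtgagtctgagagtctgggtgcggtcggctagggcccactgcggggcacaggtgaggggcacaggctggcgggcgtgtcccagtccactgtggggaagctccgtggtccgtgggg
Motifs were searched on both strands of 300-base windows, 250 bases before and 50 after the start. RefSeq windows were held for 6 of the 8 genes, Lgals2, Lgals3, Lgals4, Lgals7, Lgals8 and Lgals9. In Lgals2 the capitals mark 3 strings known from sites of gut transcription factors, which were in no other galectin window searched. The GATA factor string AGATAA started at position -90 from the start site and occurred in 11.2% of 32544 promoter windows. The HNF4 half-site CAAAGT started at position -79 and occurred in 14.4% of them. The CDX factor string TTTATG started at position -68 and occurred in 11.9%. In Lgals9 the capitals mark GAAA repeated after 2 bases, read on the opposite strand, the core of an interferon-stimulated response element, at position -55. This string was found in 3.45% of the windows, and Lgals9 held a second copy 16 bases into the transcript. GGGCGG, a GC box present in 35.9% of windows, lay in the windows of Lgals3, Lgals4 and Lgals7, in Lgals3 outside the printed stretch. The TATA box (TATAAA), the HNF1 motif (GTTAAT, then ATT after 1 further base) and the GAS element (TTC and GAA, 3 bases apart) were found in none of the 6 windows and in 13.6%, 0.403% and 8.33% of all windows. No 2 matches overlapped in the galectin windows, and a match describes letters only.

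The values are FPKM, fragments per kilobase scaled for library size, which summed to 521651 to 693218 per library, and 11491 to 11595 genes reached 1 FPKM. Low values fell on steps, from which reads per gene could be estimated. The intervals given below in brackets are 95% Clopper-Pearson intervals from these implied reads, for the ratio of the first library named over the second, and cover counting error only. Differences are of log2(FPKM + 1), first library minus second, which understates differences of low genes. To be measured, a gene had to reach 1 FPKM in either library compared, and it was called higher or lower where the difference was 1 or wider in size, which is a 2-fold rule with no test. The 7 general epithelial markers (Epcam, Krt8, Krt18, Krt19, Cdh1, Vil1 and Cldn7) stood between 151 and 2845 FPKM in every library. They did not move as one, since Vil1 was lower in the large intestine (-1.81 against the upper, -1.71 against the lower), and Krt18 and Krt19 were higher there than in the upper small intestine (1.07 and 1.02).

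The galectins differed from one another far more than their sum differed between regions. Summed over the 8 genes, they reached 4455 FPKM in the large intestine, 4858 FPKM in the upper and 5853 FPKM in the lower small intestine, or 0.854%, 0.701% and 0.906% of each library's FPKM in that order. Lgals2, Lgals3, Lgals4, Lgals6 and Lgals9 made up 99.3% of the galectin sum in the large intestine, 99.2% in the upper and 99.4% in the lower small intestine. The tandem-repeat genes held 78.1% of it in the large intestine, against 56.1% in the upper and 53.1% in the lower small intestine. The chimera gene Lgals3 held 21.8% in the large intestine, against 5.43% and 4.64% in the upper and lower small intestine. For the prototype genes the shares were 0.176% in the large intestine, 38.5% in the upper and 42.2% in the lower small intestine, nearly all of it Lgals2.

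**Figure D1:**
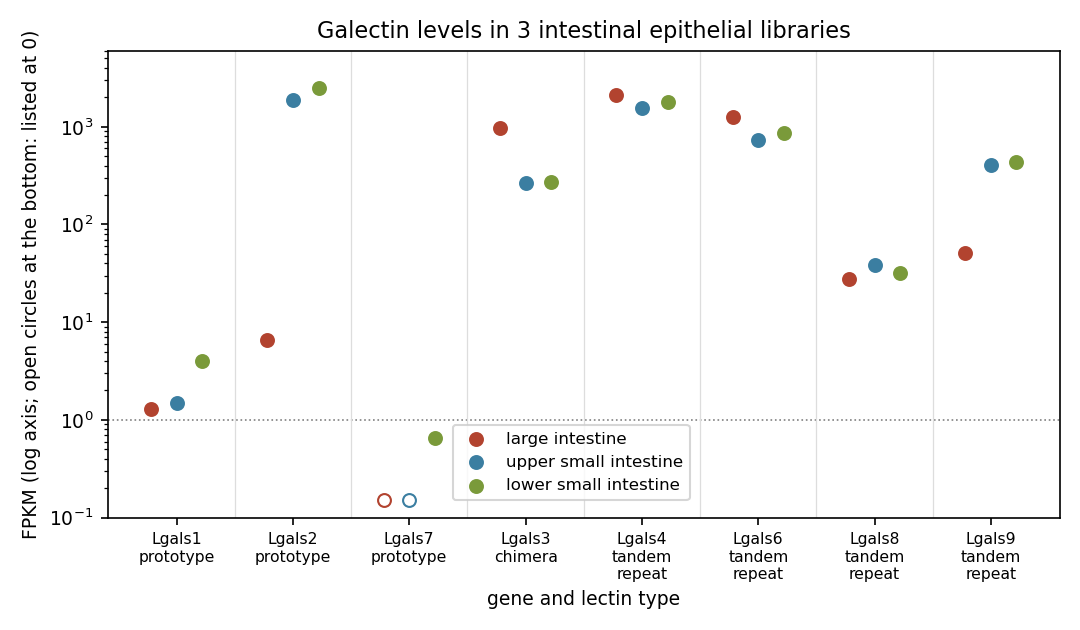
FPKM on a log axis of the 8 galectin genes, grouped by lectin type, in the large, upper small and lower small intestinal libraries (1 point per library, no error bar since each region has 1 library; open circles, listed at 0; dotted line, 1 FPKM). Lgals2 and Lgals9 sit lower in the large intestine than in both small intestinal libraries, and Lgals3 sits higher.

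**Figure D2:**
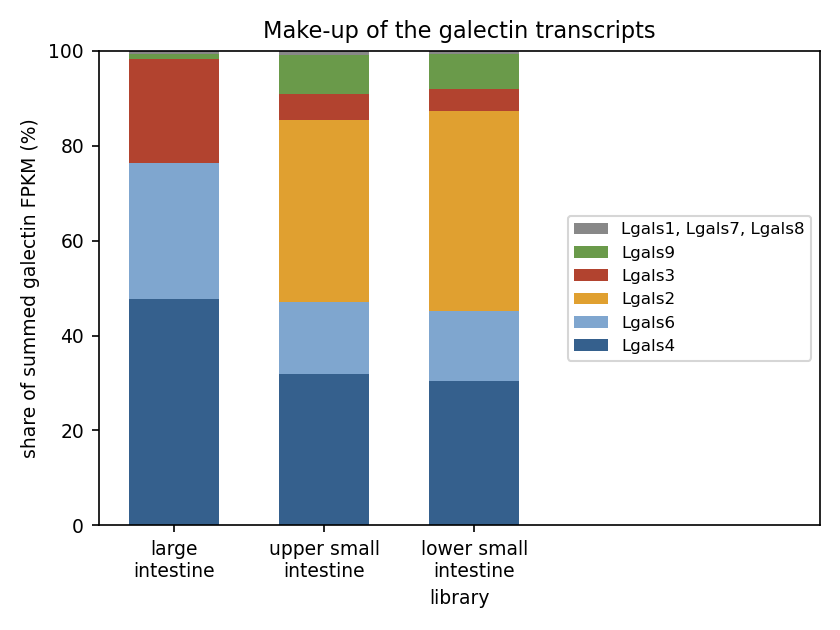
Share in percent of the summed galectin FPKM held by each gene in the large, upper small and lower small intestinal libraries (stacked bars). Lgals2 held 0.147% of the sum in the large intestine, against 38.5% in the upper and 42.2% in the lower small intestine.

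Among the prototype genes, Lgals2 showed the widest difference of the family. Galectin-2 is a lectin of stomach and intestinal epithelium. Lgals2 stood at 6.53 FPKM in the large intestine, against 1869 FPKM in the upper and 2468 FPKM in the lower small intestine. It ranked 7798th of all genes in the large intestine, against 34th in the upper and 21st in the lower small intestine. The level in the large intestine was 286-fold lower than in the upper small intestine (ratio 0.00349, 0.00223 to 0.00530) and 378-fold lower than in the lower (ratio 0.00265, 0.00169 to 0.00401). The large intestinal value stood for about 23 reads, against about 5689 reads in the upper and 11223 in the lower small intestine. The log2 differences were -7.96 and -8.36, and neither changed sign in any of the 5 alternatives tried. Upper against lower small intestine, the difference was -0.40 (ratio 0.757, 0.733 to 0.782), below the 2-fold rule, and became 0.04 when libraries were scaled on the epithelial markers. Lgals2 lies on chromosome 15 at 78850860 to 78855529 (mm10 coordinates from GENCODE M21, minus strand), where the protein-coding gene Cdc42ep1 overlaps it on the plus strand. The strand setting of the authors' counting is not given in the sources used here, so reads of overlapping genes may not have been told apart. Of the 543 stretches of 50 bases in GENCODE transcripts of Lgals2, 0 were found in transcripts of another gene on either strand.

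Markers of several cell types differed along with Lgals2. The 4 Paneth cell markers (Lyz1, Mmp7, Itln1 and Ang4) summed to 23.3 FPKM in the large intestine, against 6505 in the upper and 7244 in the lower small intestine. The 7 T cell markers found summed to 8.87 FPKM in the large intestine, against 434 and 403 FPKM in the upper and lower small intestine. Most of these small intestinal sums was Gzma alone, at 3.09 FPKM in the large intestine, against 357 and 334 FPKM. Markers of cycling crypt cells, 6 genes, summed to 138 FPKM in the large intestine, against 321 and 360 FPKM. Their part in the Lgals2 difference was not tested. In such bulk samples fewer cells of a type and less RNA per cell cannot be told apart.

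Lgals1 was low in all 3 epithelia. Galectin-1 is abundant in mesenchymal cells and activated lymphocytes and is known for inducing T cell death. Its level was 1.29 FPKM in the large intestine, 1.48 FPKM in the upper and 3.98 FPKM in the lower small intestine, or about 7, 7 and 28 reads in that order. Lgals1 had its highest value in the lower small intestine, with a difference of -1.12 for large against lower (ratio 0.324, 0.120 to 0.764) and of -1.002 for upper against lower (ratio 0.373, 0.138 to 0.875). Neither call held under every scaling. Large against lower was -0.93 with libraries scaled to the same sum, -0.94 with the same sum without short RNA genes and -0.99 on the epithelial markers. Upper against lower passed narrowly as deposited and was -0.70 on the epithelial markers. Large against upper the difference was -0.12 (ratio 0.869, 0.261 to 2.92), not detectable at this depth, and its sign turned under some scalings. The 10 fibroblast and smooth muscle markers summed to 6.20 FPKM in the large intestine, 9.95 FPKM in the upper and 15.7 FPKM in the lower small intestine. Of this sum Vim, the intermediate filament gene of mesenchymal cells and lymphocytes, gave 3.89, 6.79 and 10.3 FPKM in the same order. The defining collagen genes Col1a1, Col1a2 and Col3a1 were below 1 FPKM in every library. The 8 macrophage and dendritic cell markers summed to 4.12 FPKM in the large intestine, 34.6 FPKM in the upper and 35.3 FPKM in the lower small intestine. Fcer1g gave 0.727, 18.7 and 12.0 FPKM of these sums in the same order, while Csf1r and Adgre1 did not exceed 1.47 FPKM in any library. The part of such cells in the Lgals1 values was not tested. Lgals1 lies 71.2 kb from Lgals2 on chromosome 15 (78926725 to 78930465, plus strand).

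Lgals7, whose product is known from stratified epithelia such as skin, was listed at 0 in the large intestine and the upper small intestine and at 0.648 FPKM, about 4 reads, in the lower small intestine. It did not reach 1 FPKM anywhere and entered no count. An exact 0 in such files can be a failed estimate. Squamous epithelial markers were likewise close to 0. Krt5, Trp63, Dsg3 and Ivl were listed at 0 in all 3 libraries, and the 10 markers summed to 2.59 FPKM in the large intestine, 1.80 FPKM in the upper and 2.27 FPKM in the lower small intestine. Lgals7 lies on chromosome 7 (28863853 to 28866284, plus strand), 22.1 kb from the end of Lgals4, and is overlapped by the antisense gene Gm10648.

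The chimera gene Lgals3 was called higher in the large intestine, alone among the 8 genes. Galectin-3 takes part in apical sorting of glycoproteins in epithelia, in responses to damaged vesicles and in macrophage function. Lgals3 stood at 969 FPKM in the large intestine, 264 FPKM in the upper and 271 FPKM in the lower small intestine. It was 3.67 (3.49 to 3.87) times its upper and 3.57 (3.42 to 3.73) times its lower small intestinal level, with log2 differences of 1.87 and 1.83. The upper and lower small intestine did not differ beyond counting error (ratio 0.972, 0.916 to 1.03), and the sign of that difference turned when scaled on the epithelial markers. Macrophage and dendritic cell markers, the sums given above, were lower in the large intestine, where Lgals3 was higher. Of these 8 markers, 1 reached 1 FPKM in the large intestine (Lyz2, 1.16 FPKM), 6 in the upper and 7 in the lower small intestine. The part of such cells in the Lgals3 difference was not tested. The 6 goblet cell markers summed to 5062 FPKM in the large intestine, 3290 FPKM in the upper and 4699 FPKM in the lower small intestine, with members in opposite directions. The mucin gene Muc2 stood at 1128 FPKM in the large intestine, against 151 and 330 FPKM in the upper and lower small intestine. The trefoil factor gene Tff3 stood at 992 FPKM in the large intestine, against 1835 and 2215 FPKM. The part of goblet cells in the Lgals3 difference was not tested. Lgals3 lies on chromosome 14 at 47367751 to 47386160 (plus strand).

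Among the tandem-repeat genes, Lgals4 was the most abundant. Galectin-4 stabilises lipid rafts of the brush border and binds sulfated glycolipids. Lgals4 stood at 2125 FPKM in the large intestine, 1545 FPKM in the upper and 1782 FPKM in the lower small intestine, and ranked 18th, 46th and 40th among all genes in that order. The large to upper ratio was 1.38 (1.35 to 1.41), the large to lower ratio 1.19 (1.17 to 1.22) and the upper to lower ratio 0.867 (0.849 to 0.886). None of these reached the 2-fold rule, although each interval excluded equality as far as counting error goes. These intervals do not cover how reads were divided between Lgals4 and Lgals6, which is uncertain. The large intestine remained highest under every scaling tried, and upper against lower changed sign, from -0.21 to 0.23, when scaled on the epithelial markers. Lgals4 lies on chromosome 7 at 28833854 to 28841708 (plus strand).

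Lgals6 followed Lgals4 in order but not in size of difference. Galectin-6 is a close relative of galectin-4 known from the mouse gut, and its gene is present in some mouse strains and absent from others. The labels do not say whether these mice carry it, so values listed under Lgals6 may hold reads of Lgals4, in part or in whole. Lgals6 stood at 1274 FPKM in the large intestine, 738 FPKM in the upper and 858 FPKM in the lower small intestine. Against Lgals4 in the same library, this was a ratio of 0.599 in the large intestine, 0.478 in the upper and 0.481 in the lower small intestine. The log2 differences were 0.79 for large against upper, 0.57 for large against lower and -0.22 for upper against lower. None passed the rule as deposited, large against upper passed it at 1.20 with libraries scaled to the same sum, and upper against lower turned to 0.22 when scaled on the epithelial markers. Neither GENCODE M21 nor the RefSeq GRCm38.p6 gene table lists the symbol Lgals6, so no position, length or implied reads are given for it. How the authors' counting divided reads between these near-identical genes is not given in the sources used here, and the split between them is uncertain. Summed into 1 value, Lgals4 and Lgals6 gave 3399 FPKM in the large intestine, 2283 FPKM in the upper and 2640 FPKM in the lower small intestine, with differences of 0.57 for large against upper, 0.36 for large against lower and -0.21 for upper against lower. Among the other galectins, no 50-base stretch of a GENCODE transcript was shared with another gene, except in Lgals8. Since GENCODE M21 holds no Lgals6 transcript, this search could not show sharing between Lgals4 and Lgals6.

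Lgals8 was expressed at a modest level with small differences. Galectin-8 binds glycans exposed on ruptured vesicles and marks them for autophagy. Lgals8 stood at 27.7 FPKM in the large intestine, 38.5 FPKM in the upper and 32.1 FPKM in the lower small intestine. The large to upper ratio was 0.721 (0.604 to 0.859) and the upper to lower ratio 1.20 (1.02 to 1.40). With the shortest transcript, large against lower was not separated by counting error (ratio 0.865, 0.729 to 1.02). With the longest transcript the interval was 0.783 to 0.955, which excluded 1. The large against lower difference changed sign when libraries were scaled to the same sum. Lgals8 lies on chromosome 13 at 12439415 to 12464944 (minus strand) and overlaps Heatr1 on the plus strand, with 107 of its 3820 transcript 50-mers found in reverse in Heatr1. A further 41 were shared with AC107765.2.

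Lgals9 was lower in the large intestine. Galectin-9, an interferon-inducible lectin, is a ligand of the T cell receptor TIM-3 and was first known as an eosinophil attractant. Lgals9 stood at 51.03 FPKM in the large intestine, 402 FPKM in the upper and 437 FPKM in the lower small intestine. The large intestinal level was 7.88-fold lower than the upper (ratio 0.127, 0.114 to 0.141) and 8.57-fold lower than the lower small intestinal one (ratio 0.117, 0.105 to 0.129). The log2 differences were -2.95 and -3.07. Upper against lower it was -0.12 (ratio 0.919, 0.877 to 0.964), which turned to 0.32 when scaled on the epithelial markers. T cell and macrophage markers, given above, were lower in the large intestine as well, and their part in the Lgals9 difference was not tested. Lgals9 lies on chromosome 11 at 78962974 to 78984946 (minus strand).

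**Figure D3:**
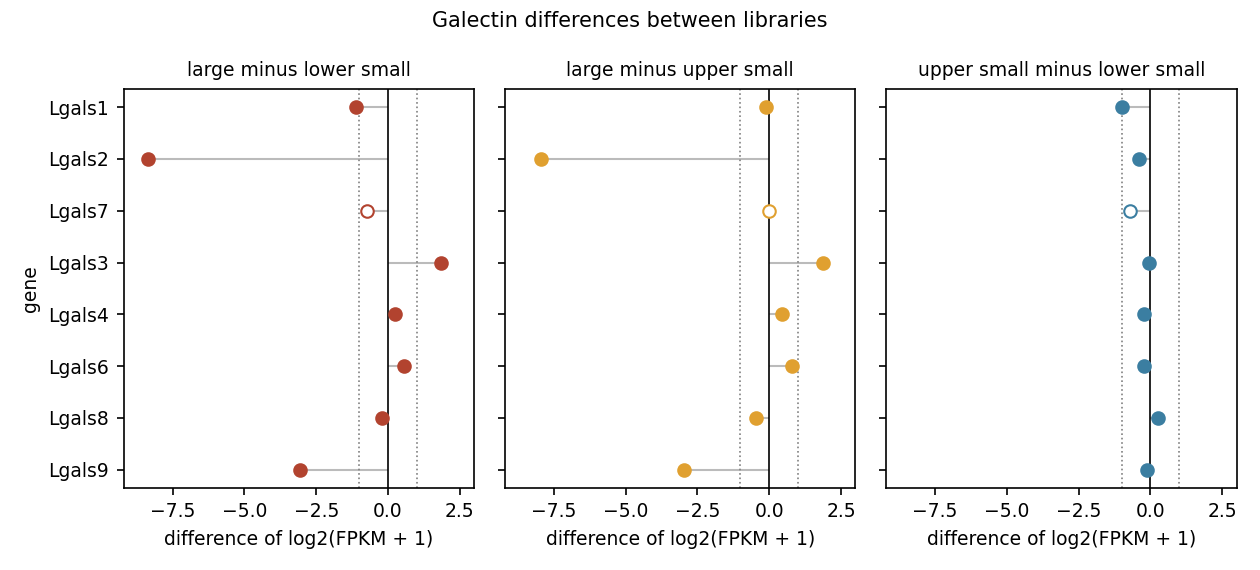
Differences of log2(FPKM + 1) of the 8 galectin genes for large minus lower small, large minus upper small and upper small minus lower small intestine (dotted lines, the 2-fold rule; open circles, below 1 FPKM in both libraries; 1 library per region). Against both small intestinal libraries Lgals3 lies to the right of the rule and Lgals2 and Lgals9 to the left, while for upper minus lower Lgals1 alone reaches it.

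Counted over the family, 7 of 8 galectins were measured in each comparison. Large against lower small intestine, 1 was higher (Lgals3) and 3 were lower (Lgals2, Lgals9 and, as deposited but not under 3 of 4 scalings, Lgals1), where 9.75% of all 12376 measured genes were higher and 10.5% lower (20.2% either way). Large against upper, 1 was higher (Lgals3) and 2 were lower (Lgals2 and Lgals9), where 11.2% of 12350 genes were higher and 11.7% lower (22.9% either way). Upper against lower, none was higher and 1 was lower (Lgals1), where 3.92% of 11941 genes were higher and 2.92% lower (6.84% either way). The median differences over the measured galectins were -0.20, -0.12 and -0.21 in the order of these comparisons, beside 0.00, 0.00 and -0.03 over all measured genes. The comparisons share libraries and are not independent. With so few members these counts describe the family and carry no test.

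The genes most like each strongly differing galectin over the 3 libraries were sought by the smallest Euclidean distance between centred log2(FPKM + 1) values, among protein-coding genes of like mean level. For Lgals2, out of 308 candidates, they were Anpep, aminopeptidase N (distance 0.363), Itln1, intelectin-1 (0.440) and Lyz1, the Paneth cell lysozyme (1.09). Anpep stood at 6.34 FPKM in the large intestine, 2250.4 FPKM in the upper and 2086 FPKM in the lower small intestine. For Lgals3, out of 249, they were Car4, carbonic anhydrase 4 (0.035), Cd63, a tetraspanin (0.475), and Aldoa, aldolase A (0.492). Car4 stood at 598 FPKM in the large intestine, 158 FPKM in the upper and 162 FPKM in the lower small intestine. For Lgals9, out of 552, they were Lap3, leucine aminopeptidase 3 (0.017), Mep1b, meprin beta (0.173), and Xpnpep1, aminopeptidase P1 (0.184). Lap3 stood at 30.98 FPKM in the large intestine, 243 FPKM in the upper and 266 FPKM in the lower small intestine. With 3 libraries, likeness of this kind is a description only.

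Of 19 measured genes for N-glycan branching, N-acetyllactosamine chains and O-glycan cores, the large intestine had 3 higher and 2 lower against the lower small intestine, where 9.75% of all measured genes were higher and 10.5% lower. Against the upper small intestine 8 of the 19 were higher and 2 lower, where 11.2% were higher and 11.7% lower of all genes. This count did not hold under every scaling. Scaled on the epithelial markers, 5 were higher and 4 lower against the upper, where 36.3% of all called genes were higher. B3gnt7, which extends N-acetyllactosamine chains, stood at 246 FPKM in the large intestine, 9.72 FPKM in the upper and 21.6 FPKM in the lower small intestine. B3gnt2, the main poly-N-acetyllactosamine synthase, was higher in the large intestine at 35.1 FPKM, against 15.1 FPKM in the upper and 9.22 FPKM in the lower small intestine. Gcnt3, which makes branched mucin core structures, was at 62.2 FPKM in the large intestine, against 15.9 and 19.2 FPKM in the upper and lower small intestine. Gcnt1, a second core-branching enzyme, stood at 9.29 FPKM in the large intestine, 0.870 FPKM in the upper and 4.15 FPKM in the lower small intestine. The called lower genes in both comparisons, named after their values were seen, were Gcnt2 and B4galt6. Gcnt2, which adds branches to N-acetyllactosamine chains, stood at 3.26 FPKM in the large intestine, 13.04 FPKM in the upper and 12.2 FPKM in the lower small intestine. B4galt6, a galactosyltransferase that makes lactosylceramide, was at 8.16 FPKM in the large intestine, against 26.3 and 19.6 FPKM in the upper and lower small intestine. The list's median differences were 0.33 against the lower and 0.32 against the upper small intestine.

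Enzymes that cap or modify these glycans also differed. Of 9 measured, the large intestine had 5 higher and 2 lower against the lower small intestine, and 4 higher and 2 lower against the upper. The shares over all measured genes were 9.75% higher and 10.5% lower for large against lower, and 11.2% higher and 11.7% lower for large against upper. St6gal1, whose sialic acid linkage is known to block binding of several galectins, stood at 25.04 FPKM in the large intestine, 0.164 FPKM in the upper and 0.899 FPKM in the lower small intestine. St3gal3 was at 26.8 FPKM in the large intestine, against 1.53 and 1.80 FPKM in the upper and lower small intestine, and St3gal6 at 90.9 FPKM, against 23.9 and 7.95 FPKM. Both encode sialyltransferases. St3gal4, named after its values were seen, went the other way at 179 FPKM in the large intestine, 746 FPKM in the upper and 762 FPKM in the lower small intestine. Gal3st1 and Ugt8a encode the last enzymes in the synthesis of sulfatide, a glycolipid that galectin-4 binds. Gal3st1 stood at 26.2 FPKM in the large intestine, 22.9 FPKM in the upper and 10.9 FPKM in the lower small intestine, and Ugt8a at 3.44 FPKM in the large intestine, 0 in the upper and 0.025 FPKM in the lower. The list's medians were 1.19 against the lower and 0.29 against the upper small intestine.

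Proteins bound by galectins showed no common direction. Of 16 measured counter-receptor and ligand genes, the large intestine had 4 higher and 5 lower against the lower small intestine (median 0.02), and 3 higher and 6 lower against the upper (median -0.17). Of all measured genes 20.2% were called either way against the lower and 22.9% against the upper. Ceacam1, an adhesion glycoprotein, stood at 772 FPKM in the large intestine, 120.1 FPKM in the upper and 357 FPKM in the lower small intestine. Muc1, a membrane mucin bound by galectin-3, was at 5.46 FPKM in the large intestine, against 0.062 and 0.206 FPKM in the upper and lower small intestine. Several of the lower genes are leukocyte genes. Ptprc, encoding the CD45 phosphatase, stood at 1.72 FPKM in the large intestine, 12.8 FPKM in the upper and 15.3 FPKM in the lower small intestine. Itgam was at 0.853 FPKM in the large intestine, against 3.56 and 11.8 FPKM. Havcr2, which encodes TIM-3 and was named after its values were seen, stayed below 1 FPKM everywhere and was not among the measured genes. It was listed at 0 in the large intestine and reached 0.15 FPKM in the upper and 0.701 FPKM in the lower small intestine. Lgals3bp, a secreted glycoprotein that binds galectin-3, was named after its values were seen. Its level was 69.98 FPKM in the large intestine, 184 FPKM in the upper and 141 FPKM in the lower small intestine.

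All 6 brush-border enzyme genes of a list drawn up around galectin-4 and lipid rafts were called lower in the large intestine. This held against the upper and the lower small intestine alike, and Lgals4 was called in neither comparison. Raft association with galectin-4 may not hold for every product on this list, lactase among them. Of all measured genes 11.7% were lower against the upper and 10.5% against the lower small intestine. Their medians were -4.58 against the lower and -6.69 against the upper small intestine. Besides Anpep, Sis, encoding sucrase-isomaltase, stood at 5.93 FPKM in the large intestine, 936 FPKM in the upper and 491 FPKM in the lower small intestine. Lct, encoding lactase, was at 0.201 FPKM in the large intestine, against 356 and 33.4 FPKM in the upper and lower small intestine.

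Among 18 measured genes of vesicle damage and autophagy, in which galectin-3 and galectin-8 act, the large intestine had 5 higher and 1 lower against the lower small intestine, and 4 higher and 2 lower against the upper. Beside these 6 of 18 in each, 20.2% and 22.9% of all measured genes were called. With libraries scaled to the same sum, 9 of the 18 were higher and 1 lower against the upper. Under that scaling 69.0% of all called genes were higher. Trim16, a ubiquitin ligase that works with galectin-3 at damaged membranes, stood at 32.5 FPKM in the large intestine, 7.79 FPKM in the upper and 9.25 FPKM in the lower small intestine. Prkaa2, a catalytic subunit of the kinase AMPK, was at 35.6 FPKM in the large intestine, against 7.49 and 10.04 FPKM in the upper and lower small intestine. Optn, an autophagy receptor, was lower in the large intestine at 19.1 FPKM, against 81.5 and 68.3 FPKM. Upper against lower, none of the 18 passed the rule, beside 6.84% of all measured genes. The medians were 0.35 against the lower and 0.49 against the upper small intestine.

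**Figure D4:**
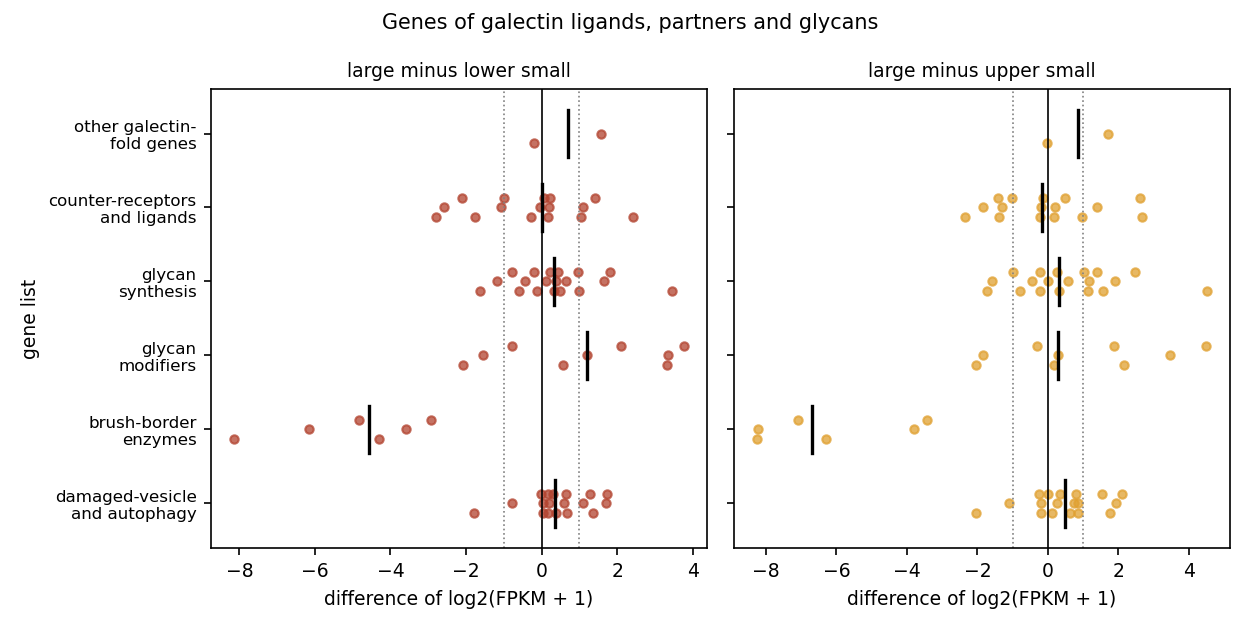
Differences of log2(FPKM + 1) for large minus lower small and large minus upper small intestine of the measured genes in 6 lists around the galectins (points, genes; black bars, list medians; dotted lines, the 2-fold rule; vertical spread has no meaning). The brush-border enzymes all lie left of the rule, and the other lists spread to both sides of 0.

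Other genes of the galectin fold were few. Lgals12, known from adipocytes, was higher in the large intestine at 15.6 FPKM, against 4.04 FPKM in the upper and 4.52 FPKM in the lower small intestine, with differences of 1.72 and 1.59. Lgalsl, a galectin-related gene, stood at 14.8 FPKM in the large intestine, 14.97 FPKM in the upper and 17.2 FPKM in the lower small intestine. Grifin, a galectin-like gene of the lens, was listed at 0 in all 3 libraries.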

How the data were processed

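Values were deposited by the authors as 1 number per gene and library and were taken as FPKM, a unit inferred because the file headers give none. Per the submitters' processing notes TopHat2 2.0.13, Bowtie2 2.2.3, SAMtools 0.1.19, Cufflinks 2.2.1 and mm10 were used, in no stated roles. The library kit was stranded per the labels, while for counting the strand option and annotation were not given in the sources used here.

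Reads were estimated from low values of single-transcript genes (500 nt or longer). The product of FPKM and transcript length less 210 nt gave 1 read a worth of 0.1095 (large), 0.1255 (upper) and 0.084 (lower) FPKM kb. In that order 78.1%, 79.1% and 77.3% of 603, 627 and 633 values came within 0.15 read of whole. Steps and length shift were fitted to these same values, and too few were whole for a count test. Implied reads of a galectin use its shortest protein-coding transcript of the GENCODE M21 basic set. Such reads, lacking molecular identifiers, may be copies of one molecule.

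Members and lists were chosen with earlier results of these data known. By rule, the named genes are the 8 galectins, up to 3 measured genes of widest difference per list and comparison, and the 3 genes most like each galectin that reached 10 FPKM and spanned 1 log2 unit. Of list genes picked by upper against lower alone, Gal3st1 was named. The others, Alpi, Cd6, C1galt1, St3gal1, Gabarapl1, Tfeb and Prkaa1, were left out. Genes named outside the rule, after their values were seen, are said to be so in the text, and marker genes are named to check cell types. Likeness was sought at 10 FPKM or more and a mean within 1 log2 unit. Python 3.11.15, pandas 2.3.3 and SciPy 1.17.1 were used, and the scripts were tested on simulated data. Alternatives were another pseudocount, other filters, 4 scalings, other rules of size and Lgals4 with Lgals6 summed.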

Additional observations from a re-analysis of the deposited data

How the results depend on the processing

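Each region has 1 library, so no replicate could be left out. No paired analysis was possible because the labels give no replicate numbers and each group holds 1 sample. The lower Lgals2 and Lgals9 and the higher Lgals3 of the large intestine kept their direction and stayed past the 2-fold rule under a pseudocount of 0.1 FPKM and all 4 scalings, over ranges of -8.54 to -7.58, -3.24 to -2.55 and 1.59 to 2.28. The calls of Lgals1 did not all hold. Large against lower, 3 galectins were called in place of 4 when libraries were scaled to the same sum, with or without short RNA genes, or on the epithelial markers, with a filter of 5 FPKM and with a 3-fold rule. Upper against lower, 0 were called in place of 1 with a filter of 5 FPKM, with scaling to the same sum without short RNA genes, with scaling on the epithelial markers and with a 3-fold rule. Large against upper, 4 were called in place of 3 when scaled to the same sum, with or without short RNA genes, and with a 1.5-fold rule.

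Scaling to the same sum moved the median of all genes to 0.28 for large against lower and 0.37 for large against upper, and scaling on the epithelial markers moved it to 0.14 and -0.26, with 0.37 for upper against lower. Of all genes called, 48.2% were higher for large against lower, 49.05% for large against upper and 57.3% for upper against lower as deposited. When scaled to the same sum these shares were 63.9%, 69.02% and 51.6%, and on the epithelial markers 55.7%, 36.3% and 81.8%. No called galectin difference changed sign in these alternatives. Called differences are 1 or wider in size, so only a wide shift could turn their sign. Of 118 alternative values of member differences, 51 moved past the counting interval or, lacking one, past a small set margin. For Lgals4, large against upper, they ran from 0.17 to 0.87, beside 0.46 as deposited. Of 40 lower counting bounds recomputed with the longest transcript or, chosen after seeing the data, without the 210 nt shortening, 0 changed side of 1. For a ratio below 1 the lower bound lies below 1 in any case, so there this check could show no change. The upper bound of Lgals8, large against lower, did change side, from 1.02 to 0.955 with the longest transcript. Depth limits Lgals1, at 7 reads in the large and the upper library, and Lgals7.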
